A study of Chlamydomonas reinhardtii with 12 samples.

Results

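Triacylglycerol synthesis and lipid droplet genes were followed in the green alga Chlamydomonas reinhardtii in 2 strains and 2 light levels. The genes were chosen by identifier, with earlier results of these data known. Of the 8 listed identifiers, 7 were found among the 17693 genes of the deposited table. The eighth, Cre02.g121200_4532.v6.1 for DGTT2, was not analysed here. All 12 libraries came from poly(A) RNA of strain CC-1690, as wild-type cells or as vip1-1, which is deficient in inositol pyrophosphates. Cultures were kept at 25 ºC in liquid TAP, a medium that contains acetate. Control light was 50 µmol m-2 s-1, and high light was 1500 in the same unit. Each of the 4 combinations of strain and light had 3 biological replicates. A single mutant strain stands for the deficiency, how long the cells stayed in high light is not given in the labels, and the disrupted gene was not checked because neither the table nor the reference used here gives gene names.

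Triacylglycerol is the neutral storage lipid that microalgae lay down under stress. Its last acyl chain is added to diacylglycerol either from acyl-CoA, by diacylglycerol acyltransferases of type 1 (DGA1) or type 2 (the DGTT enzymes), or from a membrane lipid, by phospholipid:diacylglycerol acyltransferase (PDAT1). The product is stored in droplets coated by the major lipid droplet protein (MLDP1). PGD1 is a lipase that frees newly made acyl chains from the plastid galactolipid monogalactosyldiacylglycerol, and these chains can then enter triacylglycerol.

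High light raised transcripts of the lipid droplet protein and of 3 acyltransferases in the wild type, and the rise was smaller in vip1-1 for DGTT3. For MLDP1 it was also smaller, but that call was lost in 12 of 22 alternative fits. In the wild type MLDP1 went from a mean of 30.8 to 248 FPKM, PDAT1 from 6.04 to 27.1, DGTT3 from 15.2 to 38.0 and DGA1 from 3.89 to 7.98. In vip1-1 the same genes went from 32.4 to 63.5, from 6.25 to 14.3, from 21.5 to 25.1 and from 2.54 to 4.81. FPKM is the number of sequenced fragments scaled for transcript length and library size, so levels can be compared between genes. In RNA from a whole culture, fewer cells carrying a transcript and less of it per cell cannot be told apart.

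**Figure D1:**
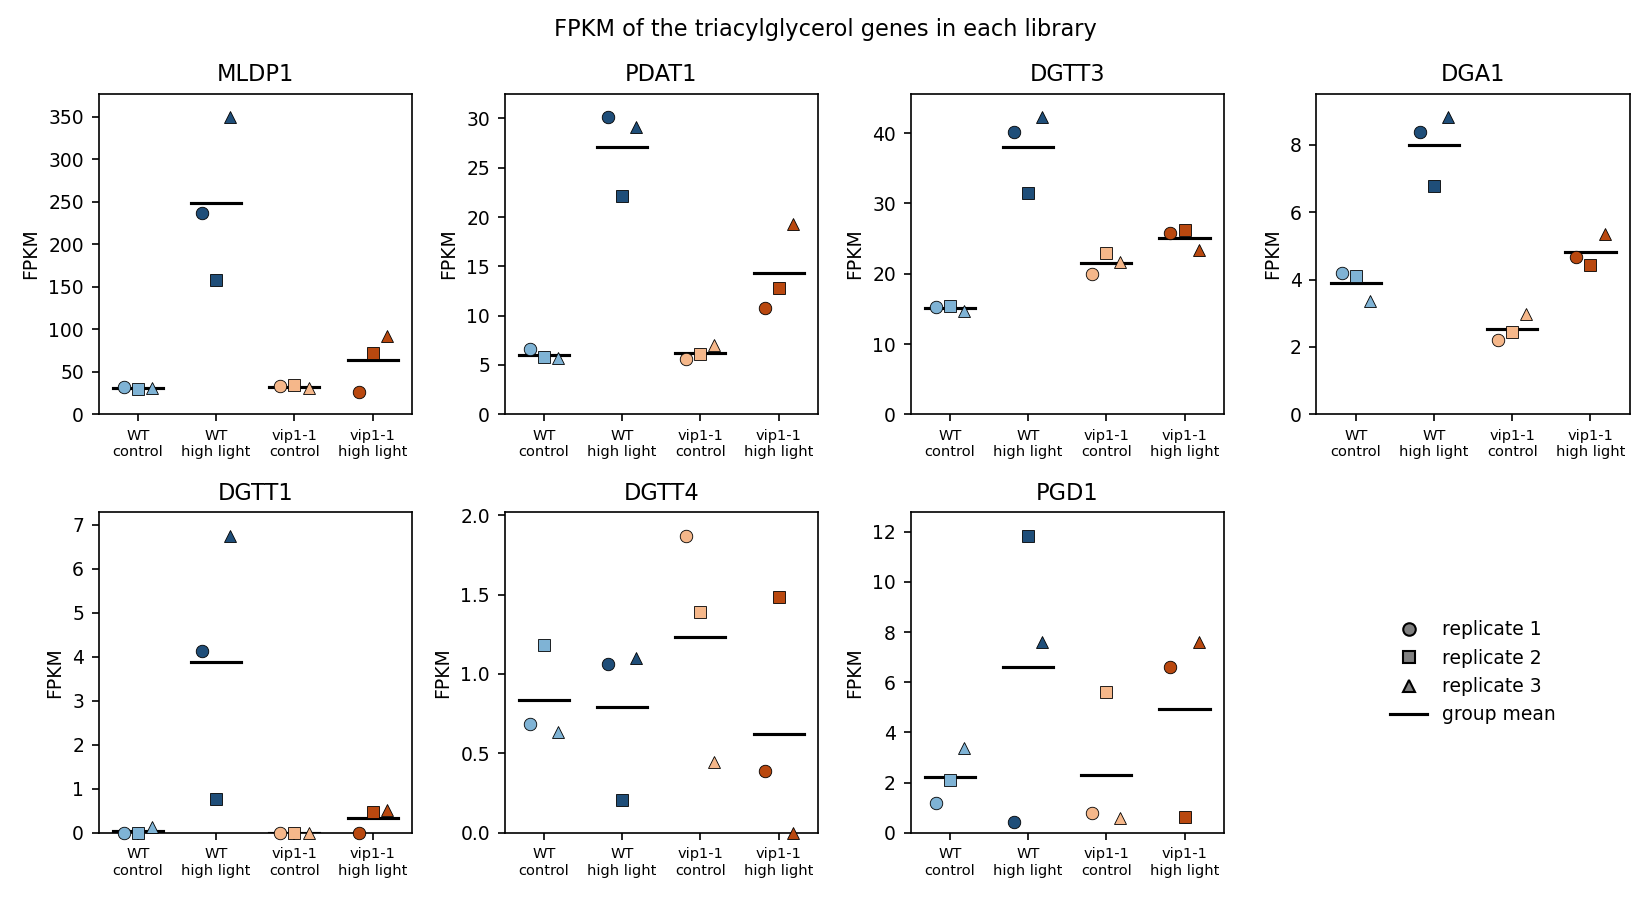
FPKM of each gene (y axis, linear, from 0) in the 4 groups (x axis), with 1 symbol per library by replicate number and a line at the group mean. In wild-type high light MLDP1 sits between 158 and 349 FPKM, above every other library, while PGD1 scatters from 0.426 to 11.8 FPKM within that group.

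Differences were tested with limma on log2(FPKM + 1) over the 12575 genes that reached an FPKM of 1 in 3 or more libraries, with Benjamini-Hochberg adjustment and a threshold of 0.05. The 5 comparisons were high light against control within each strain, vip1-1 against wild type within each light level, and the interaction, the wild-type light effect subtracted from that of vip1-1. They share groups, so their values are set side by side and not as separate evidence. Of the 7 genes 6 were tested. DGTT1 reached an FPKM of 1 in only 2 libraries and was left out of the fit. In the wild type 4 of the 6 rose in high light and none fell, where 58.4% of all tested genes passed, 44.7% as higher and 13.7% as lower. In vip1-1 2 of the 6 rose and none fell, where 41.5% of all tested genes passed, 37.4% as higher and 4.09% as lower. At an unadjusted p under 0.05 limma also gave 0 lower genes in either strain. The median log2 light effect of the 6 was 1.07 in the wild type and 0.75 in vip1-1, beside 0.39 and 0.38 for all tested genes.

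The table as a whole shifts between groups, which bears on small changes. The median tested gene was 0.39 higher in wild-type high light than in control on the log2 scale, 0.38 higher in vip1-1, and lower in vip1-1 than in wild type by -0.29 in control and -0.28 in high light. The median interaction was 0.00. Centring each library on its median left all 4 calls in the wild type, 1 of 2 in vip1-1, 1 of 2 between the strains in control light and 2 of 4 in high light. Values of 0 in a library whose 2 group partners had an FPKM of at least 1 numbered 177 of 505 in vip1-1 high light replicate 1, and wild-type high light replicate 2 held another 94, so both were also left out together.

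Among the acyltransferases DGTT3 (Cre06.g299050_4532.v6.1), a type 2 enzyme, was the most abundant in every group. Its FPKM was 15.2, 15.5 and 14.8 in control and 40.1, 31.5 and 42.3 in high light in the wild type. In vip1-1 it was 19.96, 22.9 and 21.7 in control and 25.7, 26.2 and 23.3 in high light. The 4 groups did not overlap: the wild type was lowest in control and highest in high light, with both vip1-1 groups between. The light effect in the wild type was 1.26 on the log2 scale (SE 0.13, limma adjusted p 3.11e-05), a 2.51-fold change of the mean FPKM. In vip1-1 it was 0.21 (95% confidence interval -0.07 to 0.49, limma adjusted p 0.192), which did not pass the threshold and turned to -0.21 when libraries were centred.

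The 2 effects of light on DGTT3 differed by -1.05 (SE 0.18, limma adjusted p 0.00841 for the interaction). This call held in every fit that left out 1 library and in all other alternatives, with adjusted p from 0.00111 to 0.0288. DGTT3 was also higher in vip1-1 than in wild type under control light, by 0.48 (SE 0.13, limma adjusted p 0.0154) or 0.76 above the median gene. Without wild-type control replicate 3 or vip1-1 control replicate 2 that adjusted p was 0.0510 and 0.0607. In high light it was lower in vip1-1 by -0.57 (limma adjusted p 0.00397), and by -0.23 after centring (adjusted p 0.165), which did not pass. Nor did this difference pass when only the high light libraries were fitted (limma adjusted p 0.0527).

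PDAT1 (Cre02.g106400_4532.v6.1), which takes its acyl chain from a membrane lipid, showed the largest light effect among the acyltransferases tested. Its FPKM was 6.60, 5.83 and 5.69 in control and 30.1, 22.1 and 29.1 in high light in the wild type. In vip1-1 it was 5.59, 6.15 and 6.99 in control and 10.8, 12.8 and 19.3 in high light. The control groups overlapped, and every wild-type high light library was above every vip1-1 one. PDAT1 rose by 1.99 in the wild type (SE 0.20, limma adjusted p 3.03e-05), more than 96.9% of tested genes, and by 1.04 in vip1-1 (SE 0.20, limma adjusted p 0.00334).

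In high light PDAT1 was 1.89-fold higher in the wild type than in vip1-1 by mean FPKM, and the log2 difference was -0.90 (SE 0.20), with a limma adjusted p of 0.00375. In control light the strains differed by 0.04 (95% confidence interval -0.40 to 0.48). The interaction of -0.94 (SE 0.28, 95% confidence interval -1.56 to -0.33) missed the threshold, with a limma adjusted p of 0.0626. It passed after median centring (adjusted p 0.0326), when wild-type high light replicate 2 was left out (-1.08, adjusted p 0.0288) and when vip1-1 high light replicate 3 was (-1.17, adjusted p 0.0108). In 15 of 22 alternatives it did not pass, among them the replicate block (adjusted p 0.0767), with adjusted p up to 0.145.

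DGA1 (Cre01.g045903_4532.v6.1), the type 1 diacylglycerol acyltransferase, passed the threshold for light in both strains, where DGTT3 passed in the wild type only. The genes were not tested against each other. Its FPKM was 4.20, 4.12 and 3.35 in control and 8.37, 6.77 and 8.82 in high light in the wild type. In vip1-1 it was 2.20, 2.45 and 2.99 in control and 4.67, 4.42 and 5.35 in high light. At each light level all vip1-1 libraries were below all wild-type libraries. The light effect was 0.88 in the wild type (SE 0.14, limma adjusted p 0.000424) and 0.72 in vip1-1 (SE 0.14, limma adjusted p 0.00379), which are 2.05-fold and 1.89-fold changes of the mean FPKM.

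The interaction for DGA1 was -0.16 (95% confidence interval -0.59 to 0.28, limma adjusted p 0.656), an interval that leaves room for a difference either way. Against the wild type, DGA1 was lower in vip1-1 by -0.47 in control light (SE 0.14, limma adjusted p 0.0267) and by -0.62 in high light (SE 0.14, limma adjusted p 0.00420). The median gene was lower by -0.29 and -0.28 in the same 2 comparisons. Neither strain difference of DGA1 passed after centring (-0.12, adjusted p 0.552, and -0.28, adjusted p 0.113). The light effect in vip1-1 did not pass after centring either (0.29, adjusted p 0.15). The control difference was also not past the threshold without wild-type control replicate 1 (adjusted p 0.0885) or 2 (0.0929), or vip1-1 control replicate 1 (0.102) or 2 (0.0775).

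**Figure D2:**
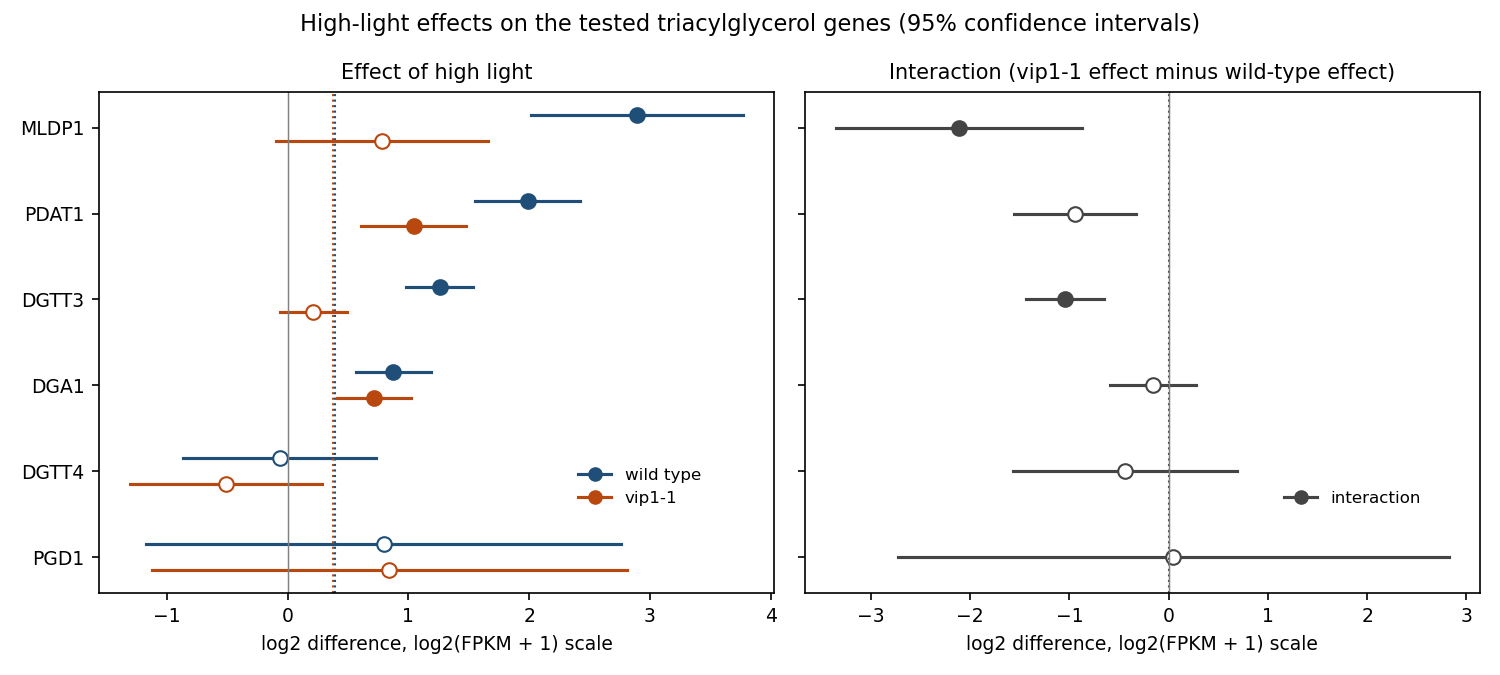
Log2 differences of the 6 tested genes (x axis, log2(FPKM + 1) scale) with 95% confidence intervals from limma, for high light in each strain (left) and for the interaction (right). Filled points passed an adjusted p of 0.05, open points did not, and dotted lines mark the median of all tested genes. The strains lie apart for MLDP1 (2.90 against 0.78) and DGTT3 (1.26 against 0.21) and close together for DGA1 (0.88 against 0.72).

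DGTT1 (Cre12.g557750_4532.v6.1), a second type 2 enzyme, was at or near 0 in control light in both strains. It was listed at 0 in wild-type control replicates 1 and 2 and at 0.135 FPKM in replicate 3, and at 0 in all 3 vip1-1 control libraries. In wild-type high light it stood at 4.14, 0.764 and 6.75 FPKM, and in vip1-1 high light at 0, 0.469 and 0.528 FPKM. Every wild-type high light library was thus above all the others. With 3 libraries a group the smallest two-sided exact permutation p is 0.1, which was reached for light in the wild type and for the strains in high light. For light in vip1-1 the exact permutation p was 0.4, and for the strains in control light it was 1. When all genes with any value above 0 were fitted, the log2 effect of light in the wild type was 1.98 (limma adjusted p 0.00368), and vip1-1 was lower in high light by -1.66 (limma adjusted p 0.0122). The interaction in that fit was -1.60 (limma adjusted p 0.15). The fit shares a single spread per gene across the 4 groups, and both control groups, at or near 0, hold almost none. Its adjusted p values are therefore likely too small for the scatter seen in wild-type high light. No fold is given, since the control values are at or near 0.

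DGTT4 (Cre03.g205050_4532.v6.1), the other type 2 enzyme in the table, was weakly expressed throughout. Its FPKM was 0.687, 1.18 and 0.633 in control and 1.06, 0.209 and 1.10 in high light in the wild type. In vip1-1 it was 1.87, 1.39 and 0.447 in control, and in high light 0.386, 1.48 and listed at 0. All 4 groups overlapped. None of its 5 comparisons passed the threshold in limma, with adjusted p from 0.271 to 0.884. Its light effect was -0.07 in the wild type (95% confidence interval -0.86 to 0.73) and -0.51 in vip1-1 (-1.31 to 0.29).

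Summed over DGA1, DGTT1, DGTT3, DGTT4 and PDAT1, acyltransferase transcripts came to 26.0 ± 1.21 FPKM in control and 77.7 ± 14.4 in high light in the wild type (SD, n = 3). In vip1-1 the sums were 31.5 ± 1.71 and 45.2 ± 3.48 FPKM. The makeup of the sum moved as well. DGTT3 held 58.4% ± 1.55 of it in wild-type control and 49.1% ± 1.96 in high light, and 68.2% ± 1.26 and 55.9% ± 7.07 in vip1-1 (SD, n = 3). PDAT1 held 23.3% ± 1.38 and 35.0% ± 1.69 in the wild type, and 19.8% ± 1.73 and 31.3% ± 7.41 in vip1-1. DGA1 held 14.9% ± 1.14 in wild-type control and 10.3% ± 0.60 in high light, and its share in vip1-1 was 8.06% ± 1.09 and 10.7% ± 0.80. DGTT1 made up 4.62% ± 3.22 of the sum in wild-type high light and 0.71% ± 0.61 in vip1-1 high light. The shares of PDAT1 and DGTT3 in vip1-1 high light spread over more than 10 percentage points between replicates, from 25.9% to 39.8% for PDAT1 and from 48.1% to 61.9% for DGTT3. DGTT3, PDAT1 and DGA1 kept this order of mean FPKM in all 4 groups, with no overlap between neighbouring genes of the 3.

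**Figure D3:**
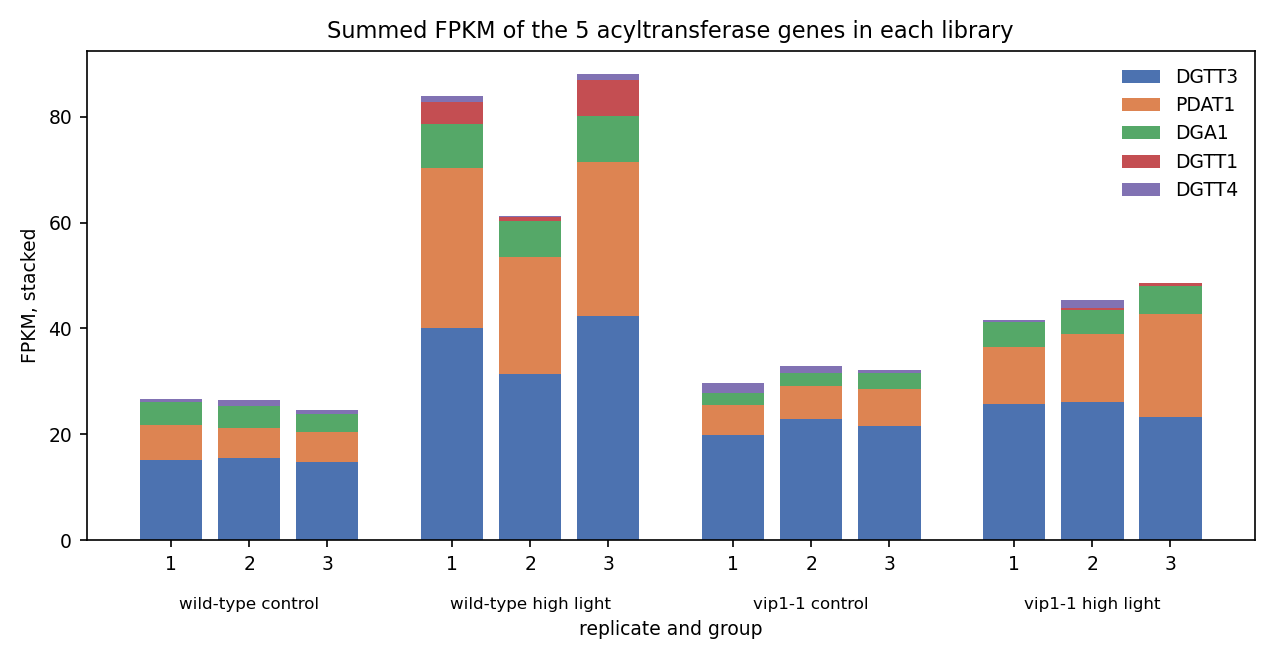
Stacked bars of the FPKM of the 5 acyltransferase genes (y axis, from 0) in each library (x axis, replicate number within group). The wild-type high light bars reach 61.3 to 88.0 FPKM, against 41.6 to 48.5 in vip1-1 high light, and DGTT3 and PDAT1 make up most of every bar.

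MLDP1 (Cre09.g405500_4532.v6.1), which coats the droplet surface, was the most abundant of the 7 genes in every group. Its FPKM was 32.4, 29.5 and 30.4 in wild-type control, and 33.0, 33.8 and 30.3 in vip1-1 control. In high light it was 236, 158 and 349 in the wild type and 26.7, 71.7 and 92.1 in vip1-1. The control groups overlapped, the wild-type high light libraries were above all others, and vip1-1 high light replicate 1 was below every control library. By mean FPKM the change was 8.05-fold in the wild type and 1.96-fold in vip1-1. The light effect in the wild type was 2.90 (SE 0.40, limma adjusted p 0.000178), larger than that of 99.4% of tested genes. It stayed past the threshold in all alternatives, between 2.47 and 3.18.

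In vip1-1 the light effect on MLDP1 was 0.78 (SE 0.40, 95% confidence interval -0.10 to 1.66), which did not pass the threshold (limma adjusted p 0.135). That value rested on replicate 1: without it the effect was 1.30 (limma adjusted p 0.00475). In control light the strains differed by 0.07 (95% confidence interval -0.81 to 0.95). In high light vip1-1 was lower by -2.05 (SE 0.40, limma adjusted p 0.00190), and only 1.69% of tested genes had a lower value. This call held in all alternatives, between -2.40 and -1.52.

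The interaction for MLDP1 was -2.12 (SE 0.56, 95% confidence interval -3.36 to -0.88, limma adjusted p 0.0430). Only 0.533% of tested genes had a more negative one. Its size moved less than its call. In the 12 fits that each left out 1 library it lay between -2.47 and -1.59, and it passed the threshold in 3 of them, those that dropped wild-type high light replicate 2, vip1-1 high light replicate 1 or vip1-1 high light replicate 3. Leaving out any control library, wild-type high light replicate 1 or 3, or vip1-1 high light replicate 2 gave adjusted p from 0.0567 to 0.0978. Without both libraries that held the most isolated values of 0, it was -1.88 (limma adjusted p 0.00170). With the replicate number as a block, the adjusted p was 0.0568.

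PGD1 (Cre03.g193500_4532.v6.1), the galactolipid lipase, varied widely between replicates of a group. Its FPKM was 1.20, 2.12 and 3.37 in control and 0.426, 11.8 and 7.59 in high light in the wild type. In vip1-1 it was 0.783, 5.60 and 0.577 in control and 6.63, 0.633 and 7.60 in high light. Each high light group held a library below 1 FPKM beside others above 6, and all 4 groups overlapped. The light effect was 0.79 in the wild type (SE 0.89, 95% confidence interval -1.17 to 2.76, limma adjusted p 0.462) and 0.84 in vip1-1 (SE 0.89, limma adjusted p 0.460). Both intervals reach past 1 log2 unit in either direction, so a change of that size was not detectable at this spread.

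Between the strains, 4 of the 6 tested genes (DGA1, DGTT3, PDAT1 and MLDP1) were lower in vip1-1 in high light and none was higher, where 46.4% of all tested genes passed, 34.4% as lower and 12.1% as higher. In control light 1 was higher (DGTT3) and 1 lower (DGA1), where 32.4% of all tested genes passed, 6.39% as higher and 26.0% as lower. The interaction passed for 2 of the 6, DGTT3 and MLDP1, both negative, where 8.71% of all tested genes passed, 4.89% as negative and 3.82% as positive. At an unadjusted p under 0.05 limma gave 3 negative interactions, PDAT1 being the third, and 0 positive ones, and 0 genes higher in vip1-1 in high light. Wild-type high light replicate 2 was the lowest library of its group for 6 of the 7 genes, PGD1 being the exception. It also had the lowest median log2 value of that group, 2.74 against 2.96 and 3.04. Without it and vip1-1 high light replicate 1 together, 4 genes rose in the wild type, 3 rose in vip1-1, 4 were lower in vip1-1 in high light and 3 had a negative interaction. Over all 12575 tested genes the same 4 counts were 6547, 6283, 4729 and 1325.

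The steps before and after triacylglycerol assembly were described with 36 gene identifiers in 5 lists. These lists were chosen with earlier results of these data known, so the shares printed beside their counts are descriptive and no independent test. The table and the reference used here do not pair these identifiers with names, so which list a gene stands in was recalled from the annotation of this species and was not checked against one here. The first list held 14 genes of chloroplast fatty acid synthesis, which builds acyl chains from malonyl-acyl carrier protein. In the wild type 13 of the 14 fell in high light, beside 13.7% of all tested genes, and 1 rose, beside 44.7%. Their median was -1.32, against 0.39 for all tested genes, the reverse in sign of MLDP1, PDAT1, DGTT3 and DGA1. In vip1-1 4 fell, beside 4.09% of all tested genes, and none rose, beside 37.4% (median -0.47, against 0.38), and at an unadjusted p under 0.05 limma gave 5 lower and 1 higher. Under high light 8 of the 14 were higher in vip1-1 than in wild type and none was lower, beside 12.1% and 34.4% of all tested genes (median 0.99, against -0.28), with 9 and 0 at an unadjusted p under 0.05. In control light 0 of 14 passed in limma, with 1 higher and 1 lower at an unadjusted p under 0.05. That count rested on which libraries were fitted: with the control libraries alone 6 were higher and 3 lower in vip1-1, and when wild-type high light replicate 2 was left out 2 were higher and 1 lower.

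The largest fall in this list was that of Cre06.g294950_4532.v6.1. Its mean was 143 FPKM in wild-type control and 15.3 in high light (log2 effect -3.34, limma adjusted p 0.000204). The means in vip1-1 were 154 and 47.6 (log2 effect -1.84, limma adjusted p 0.0119). None of the 14 passed the interaction in limma, although 13 of the 14 values were positive and 7 had an unadjusted p under 0.05. Without wild-type high light replicate 2, 9 passed. The 4 that fell in vip1-1 were 1 without vip1-1 control replicate 2, 2 without vip1-1 control replicate 1 or vip1-1 high light replicate 3, and 7 without wild-type high light replicate 2. The 8 that were higher in vip1-1 were 4 without wild-type high light replicate 1 or 3, and 2 when only the high light libraries were fitted.

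Fatty acid activation and breakdown was represented by 6 genes. The list joins activation to acyl-CoA with breakdown, and not every gene in it oxidizes acyl-CoA. All 6 rose in wild-type high light (median 1.11), beside 44.7% of all tested genes, and 3 rose after median centring. In vip1-1 1 of the 6 rose, beside 37.4%, and none fell, and leaving out wild-type high light replicate 2 gave 2. In high light 3 of the 6 were lower in vip1-1, beside 34.4% of all tested genes, and none was higher. After median centring 1 was lower. The only interaction past the threshold was that of Cre10.g423250_4532.v6.1, with means of 46.1 and 160 FPKM in wild-type control and high light and 44.9 and 62.0 in vip1-1. This interaction was -1.29 (SE 0.31), at a limma adjusted p of 0.0293. The gene was entered in the list as a malate dehydrogenase, which does not itself act on acyl chains. That name was recalled and not checked. At an unadjusted p under 0.05, 3 interactions of the list were negative and 0 positive. In 8 of the fits without 1 library no interaction passed, and without wild-type high light replicate 3 there were 4.

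**Figure D4:**
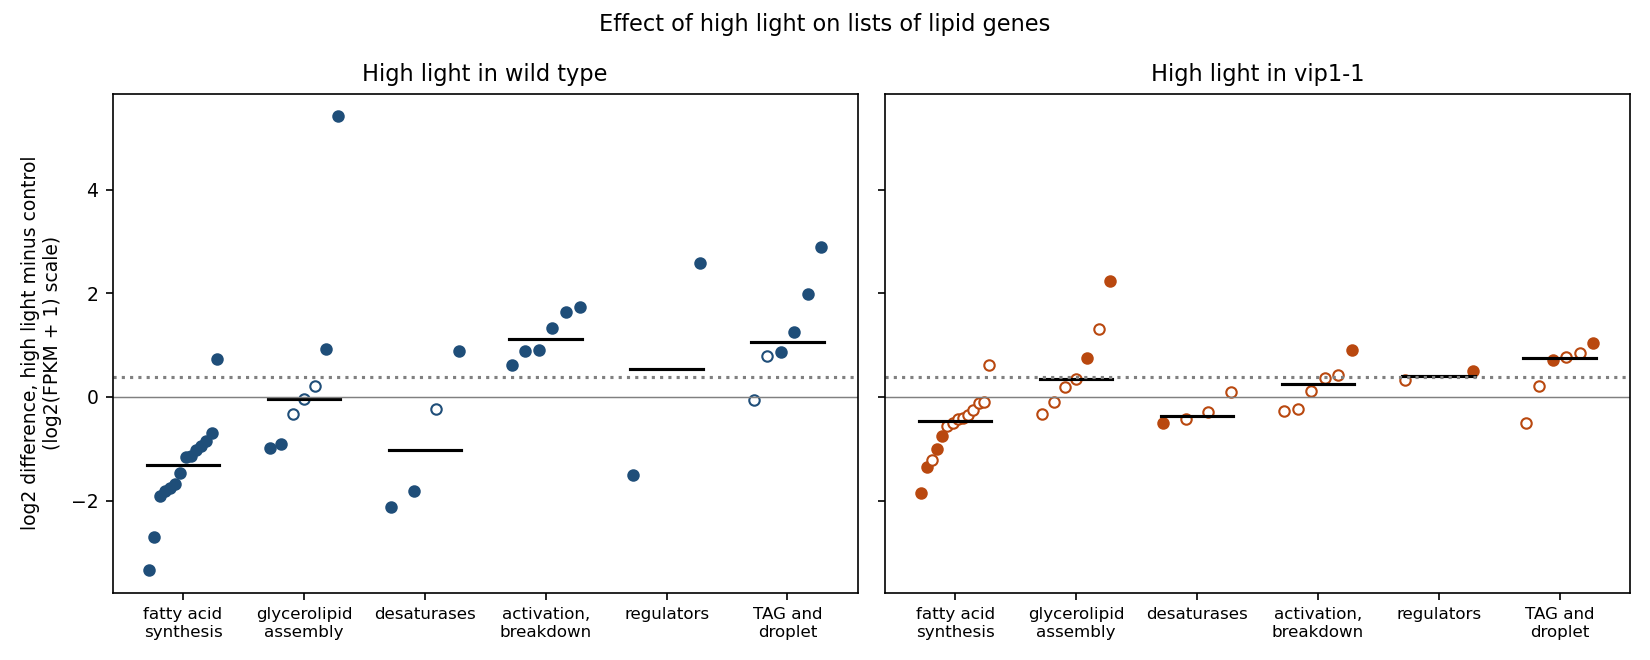
Log2 effect of high light (y axis, log2(FPKM + 1) scale) for each tested gene of the 5 lists and for the 6 tested triacylglycerol and droplet genes (x axis), in the wild type (left) and vip1-1 (right). Filled points passed an adjusted p of 0.05, short lines are list medians, and the dotted line is the median of all tested genes. In the wild type fatty acid synthesis lies mostly below 0 (median -1.32). The activation and breakdown list and the triacylglycerol genes lie mostly above (medians 1.11 and 1.07).

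The glycerol backbone and glycerolipid assembly list held the largest light effect of any listed gene. Cre01.g053000_4532.v6.1 rose in both strains, with means of 1.37 and 127 FPKM in the wild type (log2 effect 5.41, limma adjusted p 2.35e-05) and 8.70 and 45.1 in vip1-1 (log2 effect 2.23, limma adjusted p 0.00746). The call in vip1-1 was lost with quantile normalization (adjusted p 0.0525). Its interaction was -3.18 (SE 0.72), at a limma adjusted p of 0.0233. With a pseudocount of 5 the interaction was -2.21 (adjusted p 0.0560). Without any of the 6 control libraries or wild-type high light replicate 1 its adjusted p lay between 0.0521 and 0.0624. Of the 7 genes tested among the 8 of this list, 2 rose and 2 fell in the wild type, and 2 rose and none fell in vip1-1. The shares of genes that rose were no higher than the 44.7% and 37.4% over all tested genes. Those that fell, 2 and none, stood beside 13.7% and 4.09% of all tested genes. The 2 rises in vip1-1 became 1 with median centring and 0 with quantile normalization.

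Of 4 desaturases, which insert double bonds into acyl chains, 1 rose and 2 fell in the wild type, beside 44.7% and 13.7% of all tested genes, and with median centring 0 rose and 3 fell. In vip1-1 1 of the 4 was called lower, beside 4.09%. No desaturase was called there with a pseudocount of 5, no filter, quantile normalization, rescaled libraries or the replicate block, nor in 9 of 12 refits without a single library, which were those without a control library, wild-type high light replicate 1 or vip1-1 high light replicate 2 or 3. Leaving out wild-type high light replicate 3 gave 2. Among them Cre13.g590500_4532.v6.1 fell in the wild type, with means of 720 and 175 FPKM, and stood at 214 and 158 in vip1-1. Its interaction was 1.68 (SE 0.34), at a limma adjusted p of 0.0158. Cre01.g038600_4532.v6.1 also had a positive one (1.53, limma adjusted p 0.0153). That of Cre17.g711150_4532.v6.1 was negative (-0.80, limma adjusted p 0.0266). No negative one passed in 7 of 12 refits without a single library. The 2 positive and 1 negative stood beside 3.82% and 4.89% of all tested genes. In control light 2 desaturases were higher in vip1-1 and 1 lower, beside 6.39% and 26.0%. In high light 2 were higher and none lower, beside 12.1% and 34.4%. Of 4 regulators of the starvation response 2 were tested. Cre12.g495100_4532.v6.1 rose in the wild type in every setting that tested it. Wild-type means were 0.77 and 9.54 FPKM (log2 effect 2.57, limma adjusted p 5.13e-07), and vip1-1 means were 2.45 and 3.86 (log2 effect 0.50, limma adjusted p 0.00615). The vip1-1 effect was close to the median gene's 0.38, and it did not pass after median centring (0.07, adjusted p 0.712) or quantile normalization (0.09, adjusted p 0.628). Its interaction was -2.08 (SE 0.15), at a limma adjusted p of 0.000163. The remaining regulator, Cre06.g275350_4532.v6.1, fell in the wild type and did not pass in vip1-1. Its means were 8.54 and 2.54 FPKM in the wild type and 0.294 and 0.617 in vip1-1. The interaction for this gene was opposite in sign, 1.82 (SE 0.33), at a limma adjusted p of 0.0105. With a vip1-1 control mean of 0.294 FPKM, a fall as large as that of the wild type was not possible in vip1-1. Part of this positive interaction follows from that low level, so it cannot show that the response to light differed. In control light Cre06.g275350_4532.v6.1 was lower in vip1-1 by -2.88 (limma adjusted p 5.61e-05).

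The genes outside the set most like each member were found by Pearson's r of log2(FPKM + 1) over the 12 libraries, which share 4 groups and so follow the group means. For MLDP1 they were Cre14.g630895_4532.v6.1 (r 0.992) and Cre04.g217220_4532.v6.1 (r 0.987). The first had group means of 0.406 and 3.40 FPKM in the wild type and 0.340 and 0.980 in vip1-1, in control and high light. For DGTT3 they were Cre10.g444750_4532.v6.1 (r 0.987) and Cre10.g449550_4532.v6.1 (r 0.980). The former had means of 11.7 and 23.2 FPKM in the wild type and 15.2 and 17.9 in vip1-1. For PDAT1 they were Cre13.g605150_4532.v6.1 and Cre12.g487850_4532.v6.1 (r 0.992 and 0.991), of which the latter had means of 32.6 and 158 FPKM in the wild type and 32.5 and 77.3 in vip1-1.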

How the data were processed

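FPKM values per gene were made by the authors from stranded poly(A) libraries and deposited as 1 table of 12 libraries. HISAT2 and StringTie are named in the submitters' processing notes. Versions, genome build, and how reads shared by related genes such as the DGTT family were assigned are not given in the sources used here. FPKM steps did not give back whole reads, so depth is unknown.

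From these values log2(FPKM + 1) was computed, genes that reached an FPKM of 1 in 3 or more libraries were kept, and a mean for each of the 4 groups was estimated jointly with limma 3.58.1 under R 4.3.3 (mean-variance trend, Benjamini-Hochberg). Fold changes on this scale understate those of low genes. DGTT1 was tested by exact permutation. Figures used Python 3.11.15 and matplotlib 3.10.9. The fit was tested on simulated data. Members and lists were chosen with earlier results of these data known. Named are the members, up to 3 genes per list with the largest effects past the threshold, and the 2 genes most correlated with a member. Alternatives changed pseudocount, filter, scaling, libraries fitted, trend, replicate block and each library in turn.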

Additional observations from a re-analysis of the deposited data

Results flagged for a closer look

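For 2 of the 6 tested genes, beside 8.71% of all tested genes, the response to high light was unequal in wild type and vip1-1, by limma's test of the difference itself. For DGTT3 the light effect in vip1-1 was lower than in wild type by -1.05 on the log2 scale. For MLDP1 the difference was -2.12, with an adjusted p of 0.0430. The DGTT3 difference passed in all 22 alternatives. That of MLDP1 missed the threshold in 12 of 22, among them the replicate block (adjusted p 0.0568) and 9 of the 12 fits that each left out 1 library. The PDAT1 difference of -0.94 missed it (adjusted p 0.0626) and passed in 7 of 22.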

How the results depend on the processing

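The 6 tested genes in 5 comparisons were recomputed under 23 alternatives, 1 of them (without wild-type high light replicate 2 and vip1-1 high light replicate 1) chosen after seeing the data. Of the 669 values 603 kept direction and side of the threshold, 28 were no longer past it, 9 newly passed it and 29 changed sign, none from a called value. The cause was not tested. A filter on a mean FPKM of at least 5 leaves out DGA1, DGTT4 and PGD1. Light in wild type gave 3 calls under this filter, 5 with no filter, where DGTT1 enters the fit, and 4 otherwise. For light in vip1-1 the 2 calls became 1 with this filter, median centring or quantile normalization. For the strains in control light 2 became 1 with a pseudocount of 5 and under the same 3 settings. In high light 4 became 2 under centring and quantile normalization. There the DGTT3 call was also lost when only the high light groups were fitted (limma adjusted p 0.0527). The mean filter left out DGA1, and no filter added DGTT1 as lower (limma adjusted p 0.0122). For the interaction 2 became 1 with a pseudocount of 0.1, no filter or the replicate block, and 3, with PDAT1, with a pseudocount of 5, the mean filter, centring or quantile normalization (PDAT1 adjusted p 0.0281 to 0.0497). Leaving out 1 library gave 4 to 4, 2 to 3, 0 to 2, 4 to 4 and 1 to 3 calls in the order of the comparisons. Deviations from the group means correlated at r -0.49 to 0.48 over 18 same-numbered pairs and -0.53 to 0.48 over 36 others. With 3 libraries a group these values cannot show whether the numbers pair samples. Under the block the MLDP1 interaction had an adjusted p of 0.0568 and that of DGTT3 0.0263.

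Of the sign changes, DGTT3 in vip1-1 light was -0.21 with centring and -0.13 with quantile normalization. DGTT4 in wild-type light was 0.0049 with libraries rescaled to equal sums, 0.19 without both libraries, and -0.20 to 0.19 without 1. DGTT4 between strains in high light was 0.14 with centring, 0.065 with quantile normalization and -0.56 to 0.095 without 1 library. PDAT1 between strains in control light was -0.033 to 0.11 without 1 library. PGD1 between strains in control light was 0.11 with centring, 0.14 with quantile normalization and -0.89 to 0.14 without 1 library. In high light it was 0.16, 0.042 and -1.15 to 0.59, and 0.099 without both libraries. The PGD1 interaction was -0.12 with a pseudocount of 5, -0.10 with quantile normalization and -0.91 to 0.82 without 1 library.

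Over all genes, with a mean FPKM of at least 5, which tests fewer genes, 7346 became 4173 for light in wild type, 5223 became 3071 in vip1-1, 4079 became 2082 for the strains in control light and 5838 became 3325 in high light. Light in vip1-1 gave 2241 with centring, 1901 with quantile normalization, and 3318 and 2991 without vip1-1 control replicate 1 and 2. Fitting only the groups compared gave 6856 for the strains in control light and 3538 in high light, and leaving out wild-type control replicate 2 gave 2667 in control light. The interaction count of 1095 fell to between 516 and 704 without any control library, wild-type high light replicate 1 or vip1-1 high light replicate 2. It was 1932 when wild-type high light replicate 2 was dropped and 2377 without both. Centring changed the split of higher and lower genes from 5618 and 1728 to 2938 and 3381 for light in wild type, from 4709 and 514 to 878 and 1363 in vip1-1, from 804 and 3275 to 1824 and 1267 for the strains in control light, and from 1516 and 4322 to 2883 and 2425 in high light.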
